A study of Sus scrofa with 30 samples.

Results

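The genes described here are cell cycle and mitosis genes of the pig teat, chosen by name. A gene was a member if a probe set with a single gene symbol on the Affymetrix Porcine Genome Array carried the name of a cyclin of class A, B, D or E, a numbered CDK, CDC, MCM or KIF, a CENP, AURK or BUB, or the symbol TACC3, UBE2C, TOP2A, PCNA or MKI67. The rule found 60 genes of the 6765 genes with a single-symbol probe set, measured by 86 probe sets, and where a gene had several probe sets the one of highest average value was kept. The measured values did not enter the rule beyond that choice of probe set.

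The samples were teats of 10 peripubertal pigs, slaughtered at 110 kg on average. The 5 affected animals (963, 964, 1037, 1059 and 1103) had inverted teats, and the 5 non-affected animals (950, 957, 1040, 1058 and 1109) did not. Epithelial and mesenchymal tissue were arrayed separately from a normal teat of every animal and from an inverted teat of each affected animal, which gave 6 groups of 5 arrays. By breed, 6 animals were Large White x German Landrace, 957 and 963 were German Landrace, and 1103 and 1109 had the cross Pietrain x (Large White x German Landrace). The question of the series is which genes are relevant to a predisposition for this defect.

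Dividing cells make the transcripts of this gene group in waves. D cyclins with their kinases start the cycle, PCNA and the MCM helicase serve DNA replication, and cyclins A and B, the Aurora kinases, TACC3 and TOP2A rise toward mitosis, after which CDC20 and UBE2C help the anaphase promoting complex to destroy the cyclins. In whole tissue these mitotic transcripts serve as a measure of how many cells divide, and teat and mammary epithelium is a tissue in which division changes with growth and hormones. A symbol is not a function, however: the CDC42 effectors, the transport kinesins and several CDK-named genes have roles outside the cycle. In pieces of tissue a lower value can come from fewer cells of a type or from less RNA per cell, which cannot be told apart.

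The tissue labels were only in part borne out by marker genes. The mean log2 value of KRT8, KRT18 and KRT19, keratins of luminal epithelium, lay between 9.27 and 10.66 on 14 epithelial arrays but at 6.75 on the epithelial array of the inverted teat of animal 1103. It ran from 2.38 to 11.14 on the mesenchymal arrays, so that several mesenchymal pieces carried as much keratin transcript as the epithelial ones. In normal teats 7 of 8 luminal epithelial markers were called higher in epithelial tissue, and 11 of 12 skeletal muscle and 9 of 9 adipocyte markers higher in mesenchymal tissue. Fibroblast markers did not follow the labels: of 6 tested, 0 were higher in mesenchymal and 2, POSTN and LUM, higher in epithelial tissue. Of 4 keratinocyte markers tested 2 were higher in epithelial tissue, and of 7 milk protein genes 1 was called in each direction. Of 9 endothelial and 11 leukocyte markers tested 0 were called. Muscle differed strongly between pieces: MYLPF, a fast muscle myosin light chain, had log2 values from 1.15 to 13.48 on the mesenchymal arrays and from 0 to 11.68 on the epithelial arrays.

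Most members lay above the dim end of their arrays. Of the 60 members, 43 were over the 30th percentile of their array on all 30 arrays. AURKA, CCNA2, CCNB2, KIF20A, CENPF, CENPH, CENPT, KIF21A and KIF5C, 9 in all and mostly genes of mitosis and the centromere, lay under it on more than 15 arrays. A list of 29 classical cycle genes was sought, and 17 were among the single-symbol probe sets. MKI67, CDK1, BUB1, BUB1B, MCM6, MCM7, CCND1, CCND3, CCNE1, CCNE2, CDK4 and CDK6 were not analysed here. A filter on low values left 56 members in the tests on normal teats, 52 in those on inverted teats and 53 in each comparison within a tissue. CCNB2, a second B cyclin, CENPT, a kinetochore protein, KIF20A, a kinesin of cytokinesis, and KIF5C, a transport kinesin, passed it in none of the comparisons.

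Members of different roles varied to different extents within a group. The pooled SD within groups had a median of 0.35 over the 60 members on the log2 scale and ran from 0.16 to 1.37. Its median was 0.26 over the 11 transcriptional and other kinases and 0.3 over the 13 genes of the CDC42 group and other CDC names. It was 0.55 over the 12 genes of mitotic entry and exit, which reached the highest SD with CCNA2. CCNA2, the cyclin of S phase and early mitosis, was listed at 0 on 2 mesenchymal arrays, and KIF20A on 1 epithelial array.

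**Figure D1:**
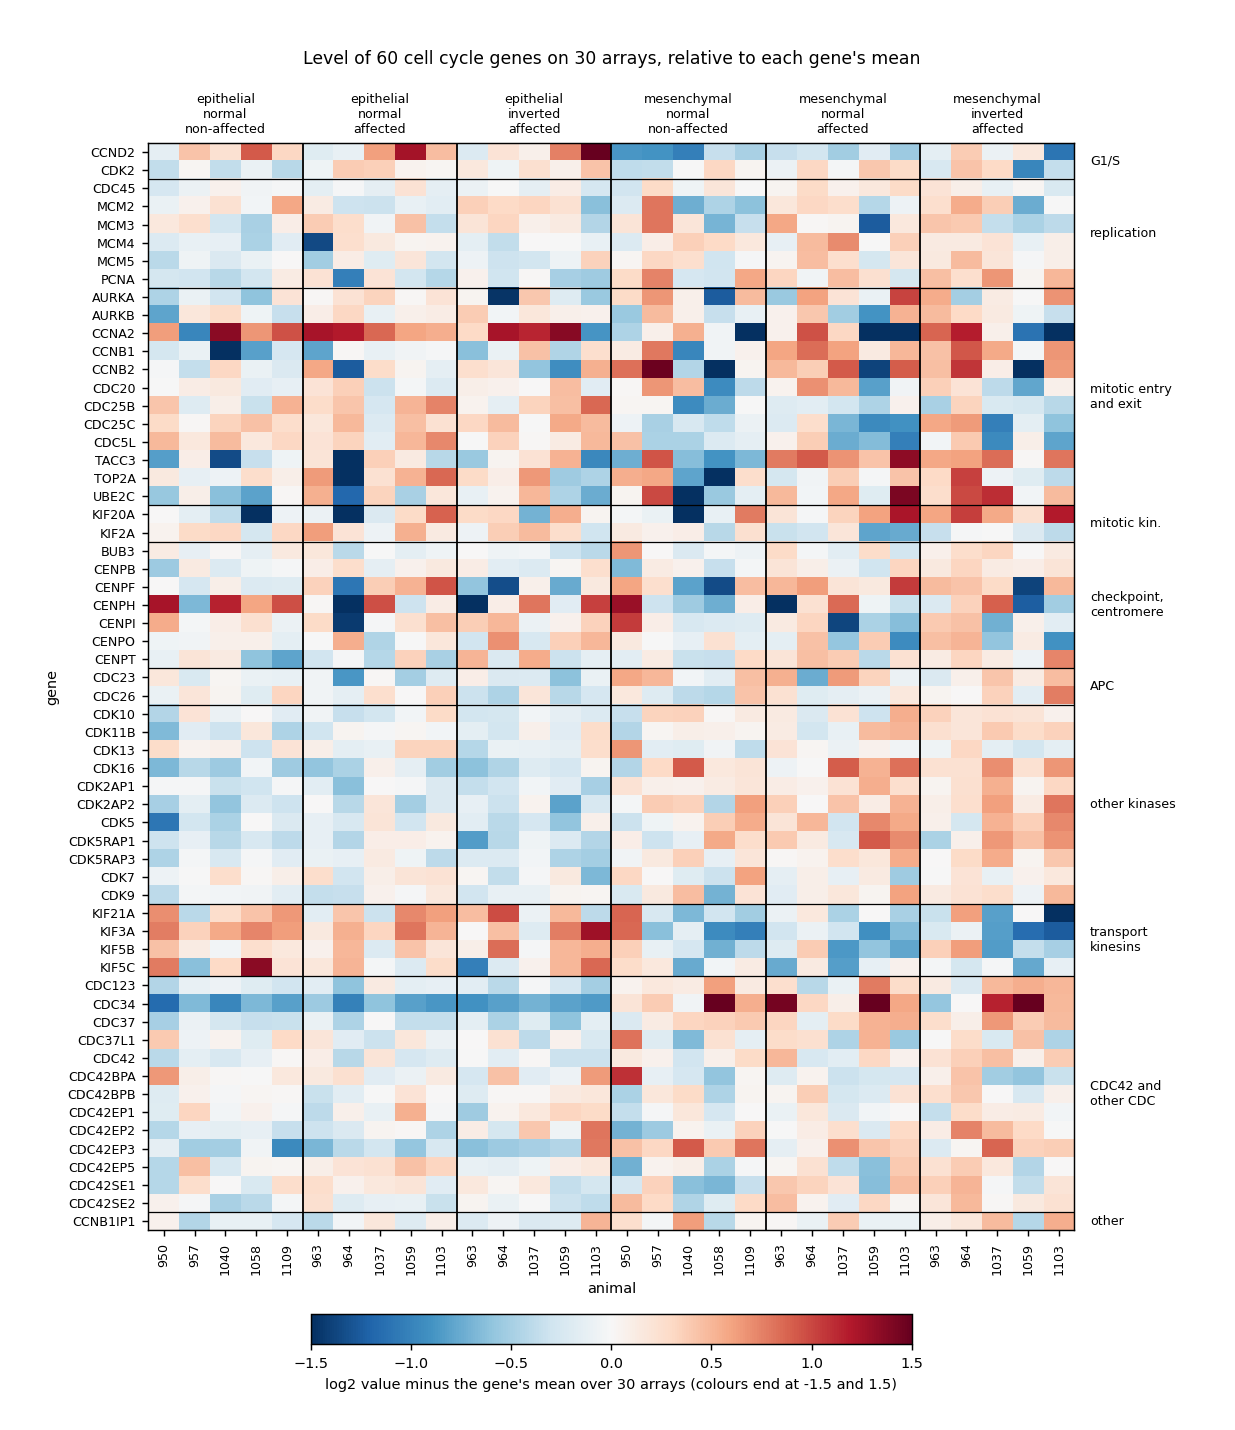
Log2 value of each of the 60 genes (rows, by role) on each of the 30 arrays (columns, by group and animal), minus the gene's mean over the 30 arrays, with colours ending at -1.5 and 1.5. CDC34 is low on all epithelial arrays, CCND2 is mostly high there, and the mitotic genes TOP2A, CCNB2, TACC3 and KIF20A are low together on single arrays such as the epithelial normal teat of animal 964. On that array CCNB1, CDC20 and AURKB are not low.

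In normal teats the cyclin genes CCND2 and CCNA2, the phosphatase genes CDC25B and CDC25C and 3 kinesin genes were higher in epithelial tissue. CCNA2 was dim on most mesenchymal arrays. The mitotic cyclin CCNB1, the ubiquitin-conjugating enzyme CDC34 and 6 kinase or kinase-partner genes with CDK names were higher in mesenchymal tissue. Of the 56 members tested, 8 were called higher and 11 lower in epithelial than in mesenchymal tissue (limma, adjusted p under 0.05, 20 arrays), which is 14.3% and 19.6% of the members. Over all 18286 probe sets tested, 12.9% were called higher and 20.6% lower in epithelial tissue, and 33.5% were called in all. The share among the members, 33.9%, was thus near that of all probe sets, and the median difference, epithelial minus mesenchymal, was -0.09 over the members and -0.06 over all. With the arrays quantile normalized the members called were 10 and 7, and the share of calls that were higher in epithelial tissue rose over all probe sets from 38.5% to 54.7%.

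CCND2, a D cyclin that activates the kinases of early G1, showed the clearest difference among the cyclins. Its log2 value ran from 7.94 to 9.37 with a median of 8.49 over 10 epithelial arrays of normal teats, and from 7.09 to 7.95 with a median of 7.62 over 10 mesenchymal arrays. The 2 ranges touched only at their ends, and CCND2 was higher in epithelial tissue in 10 of 10 animals. The difference was 0.93 ± 0.17 (SE, limma, adjusted p = 4.5e-04). CDK2, the kinase that drives entry into S phase, had a difference of -0.10 ± 0.11 (adjusted p = 0.53).

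None of the 6 replication genes was called, and their signs were mixed. PCNA, the sliding clamp of DNA polymerase, spanned 5.87 to 7.11 on epithelial arrays and 6.60 to 7.63 on mesenchymal arrays, a difference of -0.42 ± 0.17 (SE) with an adjusted p of 0.059, and it was lower in epithelial tissue in 9 of 10 animals. MCM4 and MCM5, subunits of the replicative helicase, differed by -0.41 ± 0.17 (adjusted p = 0.07) and -0.24 ± 0.12 (adjusted p = 0.11). MCM2 and MCM3 of the same helicase had differences of 0.09 and 0.07 with SEs of 0.18 and 0.21. Under a replicate block for the animal, PCNA and MCM4 passed with adjusted p of 0.016 and 0.021 (random term). In that fit the calls over all probe sets rose from 6122 to 8124.

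The mitotic genes that were called went in both directions. CCNB1, the cyclin whose kinase drives entry into mitosis, was lower in epithelial tissue in all 10 animals, with differences within an animal from -1.39 to -0.19. In the normal teats of non-affected animals (950, 957, 1040, 1058 and 1109) its values were 4.46, 4.63, 2.38, 3.91 and 4.48 in epithelial and 4.85, 5.52, 3.75, 4.68 and 4.79 in mesenchymal tissue. In those of affected animals (963, 964, 1037, 1059 and 1103) they were 3.94, 4.75, 4.62, 4.67 and 4.71 against 5.32, 5.57, 5.33, 4.86 and 5.23. The groups of affected animals did not overlap, whereas in non-affected animals the mesenchymal value of animal 1040 fell within the epithelial range. All epithelial values of non-affected animals lay under the 30th percentile of their arrays (4.61 to 4.76). Those of affected animals 963 and 1059 did so too (4.7 on both arrays). Of the mesenchymal values only that of animal 1040 lay under it (4.6). CCNB1 was thus dim in epithelial tissue. The difference was -0.74 ± 0.25 (SE, adjusted p = 0.027), and without animal 963 or 1058 it no longer passed.

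CCNA2 went the other way. Its values in epithelial tissue of normal teats ran from 3.12 to 5.45 with a median of 4.86. In mesenchymal tissue they were 3.64, 4.18, 4.63, 4.05 and 1.69 in non-affected animals (950, 957, 1040, 1058 and 1109) and 4.16, 5.06, 4.41, 0 and 0 in affected animals (963, 964, 1037, 1059 and 1103). Of these mesenchymal values only those of animals 1040 and 964 lay over the 30th percentile of their arrays (4.6 and 4.76). CCNA2 thus passed the filter mainly through epithelial arrays, where it was higher. The fitted difference of 1.62 ± 0.60 (SE, adjusted p = 0.042) rests on dim mesenchymal values, among them 2 arrays where CCNA2 was listed at 0. It no longer passed without animal 950, 963, 1040, 1058, 1059, 1103 or 1109, or without the filter on low values. On the array of animal 1103 that listed CCNA2 at 0, UBE2C and TACC3 stood at 6.59 and 5.95, their highest values on any of the 30 arrays.

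The phosphatases that activate the mitotic kinase were higher in epithelial tissue. CDC25C spanned 6.84 to 7.54 on epithelial arrays and 6.09 to 7.32 on mesenchymal arrays, was higher in 10 of 10 animals and differed by 0.62 ± 0.14 (SE, adjusted p = 0.0029). CDC25B differed by 0.49 ± 0.16 (SE, adjusted p = 0.023) and was higher in 9 of 10 animals, but it did not pass without animal 1040 or 1059. CDC5L, a splicing factor linked to mitotic entry, differed by 0.61 ± 0.17 (adjusted p = 0.011), and its second probe set by 0.74 (adjusted p = 0.0011).

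The remaining mitotic regulators were not called. TACC3, a spindle protein, differed by -0.64 ± 0.31 (SE, adjusted p = 0.12), UBE2C, the ubiquitin-conjugating enzyme of mitotic exit, by -0.30 ± 0.31 (adjusted p = 0.49), and TOP2A, the topoisomerase of chromosome separation, by 0.23 ± 0.35 (adjusted p = 0.65). AURKA and AURKB, the Aurora kinases, had -0.19 ± 0.21 and 0.06 ± 0.18. CDC20, the activator of the anaphase promoting complex, had -0.02 ± 0.19 and took the opposite sign without animal 957, 964, 1037 or 1040. None of the 6 tested genes of the spindle checkpoint and centromere was called. BUB3, a checkpoint protein, had -0.08 ± 0.12, which became 0.10 after quantile normalization.

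The kinesins called were all higher in epithelial tissue. KIF3A, a motor of transport in cilia, spanned 6.15 to 6.80 on the epithelial arrays of normal teats and 4.97 to 6.86 on the mesenchymal ones. Only the mesenchymal array of animal 950, at 6.86, reached the epithelial values, and the next highest mesenchymal value was 5.91. The difference was 0.95 ± 0.19 (SE, adjusted p = 9.4e-04), and the 2 other tested probe sets of KIF3A gave 0.71 and 1.62. KIF5B, a heavy chain of conventional kinesin, differed by 0.51 ± 0.16 (adjusted p = 0.02) and was higher in 10 of 10 animals. KIF2A, which shortens spindle microtubules, differed by 0.40 ± 0.15 (adjusted p = 0.048). KIF5B no longer passed without animal 1059 or 1103, and KIF2A without 957, 963, 964, 1040, 1059, 1103 or 1109, without the filter on low values, or with breed as a covariate.

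Of the 11 kinase and kinase-partner genes outside the core cycle, 6 were called lower in epithelial tissue, none higher, and 5 did not pass. Over all probe sets 20.6% were called lower, the median difference was -0.31 over the 11 genes and -0.06 over all probe sets, and whether the group stands apart was not tested. CDK16, a kinase best known from brain and testis, differed by -0.71 ± 0.16 (SE, adjusted p = 0.003), and its 2 other probe sets by -0.43 and -1.26. CDK2AP1, which binds CDK2, and its relative CDK2AP2 differed by -0.36 ± 0.10 and -0.50 ± 0.13. CDK2AP1 did not overlap between the tissues, with 8.66 to 9.29 on epithelial arrays against 9.35 to 9.83 on mesenchymal ones. CDK5, a kinase of neurons, had -0.47 ± 0.15. CDK5RAP1, a mitochondrial RNA-modifying enzyme, and CDK5RAP3, an adaptor of protein modification, had -0.42 ± 0.14 and -0.31 ± 0.10. After quantile normalization CDK5, CDK2AP1 and CDK5RAP3 no longer passed. CDK5 and CDK5RAP3 were also lost without animal 1040 or 1109, and CDK5 without 964 or 1059. CDK5RAP3 was lost without animal 1103, and CDK5RAP1 without 963, 1058, 1059, 1103 or 1109.

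The largest difference of any called member that was lower in epithelial tissue belonged to CDC34, a ubiquitin-conjugating enzyme that helps to remove inhibitors at the start of S phase. Its values in normal teats ran from 6.89 to 7.50 in epithelial tissue, and the mesenchymal values were 8.24, 8.43, 8.0, 10.90 and 8.60 in animals 950, 957, 1040, 1058 and 1109 and 9.49, 8.36, 8.14, 10.70 and 8.63 in animals 963, 964, 1037, 1059 and 1103. The tissues did not overlap, and animals 1058 and 1059 stood far above the rest. The difference was -1.72 ± 0.32 (SE, adjusted p = 5.9e-04). MYLPF stood at 13.34 and 13.38 on the mesenchymal arrays of 1058 and 1059, but also at 13.40 and 13.48 on those of 950 and 963, where CDC34 was 8.24 and 9.49. It stood at 1.15 on that of 1040, where CDC34 was 8.0. The mean over 12 skeletal muscle markers was 11.69 and 12.34 on the mesenchymal arrays of 1058 and 1059. On those of 950, 963 and 1040 it was 10.68, 11.52 and 2.99. The part of muscle in the CDC34 difference was not tested.

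Other CDC names called were not cycle genes proper. CDC42EP3, an effector of the GTPase CDC42, differed by -0.86 ± 0.14 (SE, adjusted p = 1.4e-04) and was lower in epithelial tissue in 10 of 10 animals. CDC37, a co-chaperone that hands kinases to HSP90, differed by -0.53 ± 0.11 (adjusted p = 0.0013). CDC123, a factor in the assembly of a translation initiation complex, differed by -0.38 ± 0.13 (adjusted p = 0.031), while its second probe set gave 0.08, and it no longer passed without animal 963, 1058, 1059, 1103 or 1109, after quantile normalization or with the mean of its probe sets. In the fit with the animal as a random replicate block the normal-teat calls were 9 and 15: CDC23, CDC42SE2, KIF21A, MCM4 and PCNA were gained and none was lost. As a fixed block the calls were 8 and 15, with KIF2A at an adjusted p of 0.053. Calls over all probe sets rose as well, from 6122 to 8124 (3306 higher and 4818 lower in epithelial tissue) with the random block. With the fixed block they were 7805 (3165 and 4640).

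Keratin levels differed between the pieces as well. When the luminal keratin mean entered the fit as a covariate, 2 members stayed higher in epithelial tissue, CCND2 and KIF3A, and 3 in mesenchymal tissue, CDC34, CDC42EP3 and CDK2AP2. The probe sets called fell from 6122 to 1780 in the same fit. For some genes the difference was about as large although the call was lost, as for CCNB1 (-0.88, adjusted p = 0.068) and CDK2AP1 (-0.30, adjusted p = 0.12). For others it shrank, as for CCNA2 (0.73, adjusted p = 0.53), KIF5B (0.15, adjusted p = 0.55) and CDC5L (0.30, adjusted p = 0.3). CCND2 and KIF3A had 1.01 and 0.71, and CDC34 had -1.37. The 5 genes named passed under each of the 18 alternatives run for normal teats. The counts also depended on single animals: the members higher in epithelial tissue were 5, 4 and 5 without animal 1040, 1059 or 1103, and those higher in mesenchymal tissue 7 without animal 1109.

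**Figure D2:**
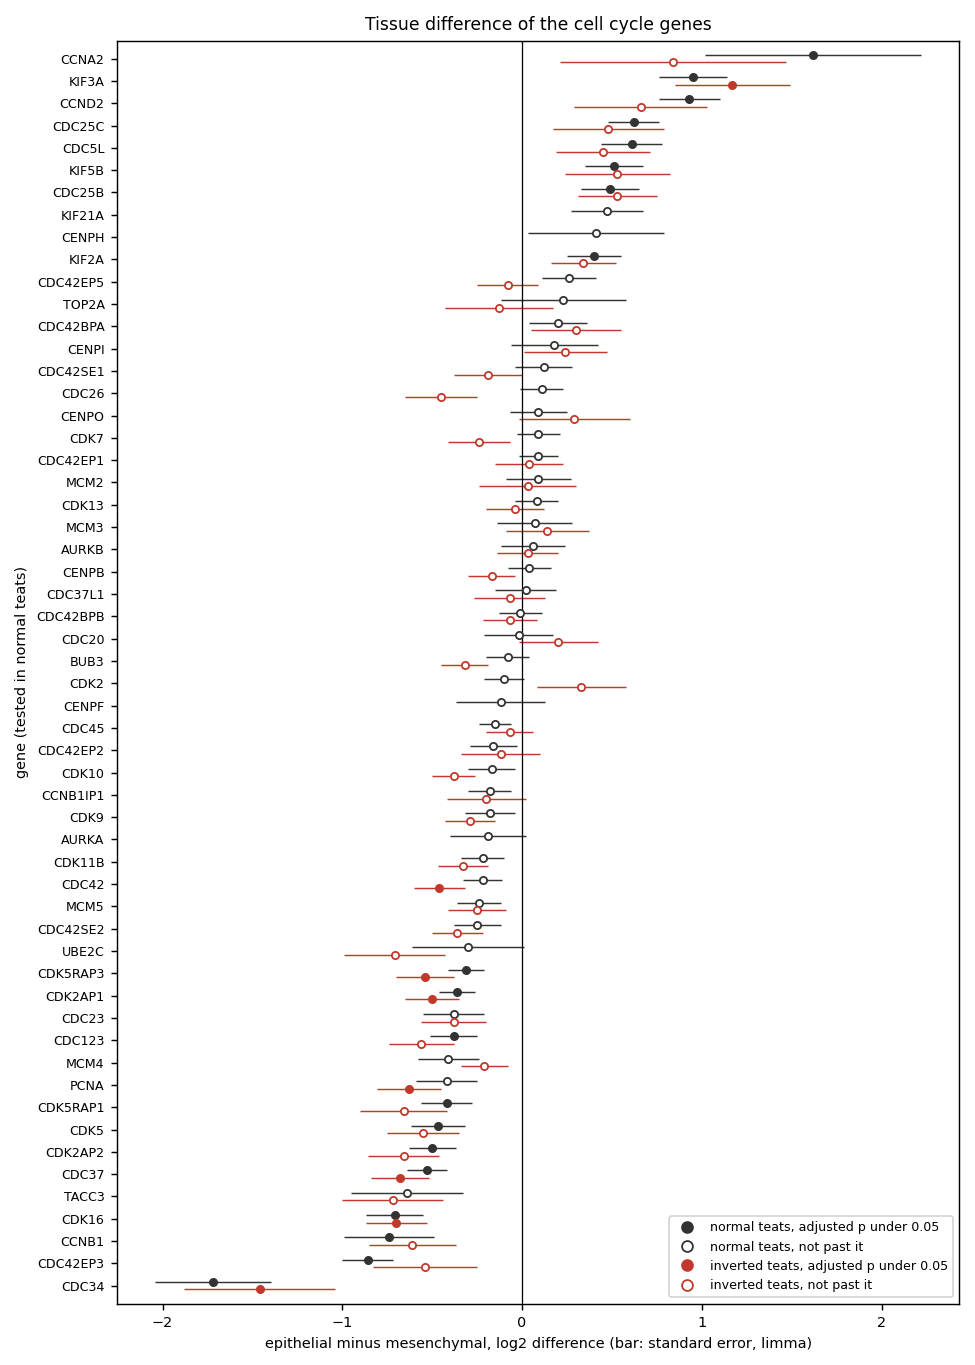
Epithelial minus mesenchymal log2 difference (points) with its standard error from limma (bars) for the 56 genes tested in normal teats (black) and, where tested, in inverted teats (red). Filled points have an adjusted p under 0.05. KIF3A and CCND2 lie to the right at 0.95 and 0.93 in normal teats, CDC34 lies farthest left at -1.72, and all 19 genes called in normal teats have the same sign in inverted teats. The animals with inverted teats are also in the normal-teat fit.

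Inverted teats of the 5 affected animals were compared on 10 arrays that the normal-teat fit did not use. Normal teats of the same 5 animals were in that fit, so the comparison is not independent of it. Of the cell type markers, 0 of 8 luminal epithelial and 0 of 12 skeletal muscle markers were called, with KRT8, KRT18 and KRT19 higher in epithelial tissue by 0.34, 0.51 and 0.58, while 8 of 9 adipocyte markers were higher in mesenchymal tissue. Of 52 members tested, 1 was called higher and 7 were called lower in epithelial tissue, or 1.92% and 13.5%, against 0.848% and 11.5% of 17108 probe sets (12.4% in all). All 19 members called in normal teats were tested and had the same sign, and 6 of them were called again: KIF3A, CDC34, CDC37, CDK16, CDK2AP1 and CDK5RAP3. KIF3A differed by 1.17 ± 0.32 (SE, adjusted p = 0.037), CDC34 by -1.46 ± 0.42 (adjusted p = 0.043), CDC37 by -0.68 ± 0.16 (adjusted p = 0.022) and CDK16 by -0.70 ± 0.17 (adjusted p = 0.026). CDK5RAP3 and CDK2AP1 had -0.54 ± 0.16 (adjusted p = 0.046) and -0.50 ± 0.15 (adjusted p = 0.048). For all of these but KIF3A the 5 epithelial and 5 mesenchymal arrays did not overlap. This adds no support of its own, since the genes were called on the same 10 arrays. The share of all probe sets without overlap was not counted. Nor was the share of all called probe sets that kept their sign or were called again in inverted teats.

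PCNA and CDC42 were called in inverted teats and not in normal ones. PCNA stood at 6.95, 6.59, 6.91, 6.39 and 6.36 in epithelial and at 7.34, 7.14, 7.55, 6.93 and 7.39 in mesenchymal tissue of animals 963, 964, 1037, 1059 and 1103. It was lower in epithelial tissue in all 5 animals, and the ranges overlapped only between 6.93 and 6.95. The difference was -0.63 ± 0.18 (SE, adjusted p = 0.041), compared with -0.42 ± 0.17 in normal teats. CDC42, a GTPase of cell polarity, differed by -0.46 ± 0.14 (adjusted p = 0.05, just under the threshold before rounding), and a second probe set by -0.65 (adjusted p = 0.028). That second probe set was also called in normal teats, with -0.45 (adjusted p = 0.0044).

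Among the other core genes in inverted teats, UBE2C was lower in epithelial tissue in 5 of 5 animals by -0.71 ± 0.28 (SE, adjusted p = 0.11), and under a replicate block for the animal it passed (adjusted p = 0.046 with a random term, 0.035 with a fixed one). CCNB1 had -0.61 ± 0.24 (adjusted p = 0.12), TACC3 -0.72 ± 0.28 (adjusted p = 0.11) and CCND2 0.66 ± 0.37 (adjusted p = 0.25). TOP2A, AURKB, MCM2 and MCM3 had differences between -0.13 and 0.14, and MCM4, MCM5, CDC20, CDK2 and CCNA2 had -0.21, -0.25, 0.20, 0.33 and 0.84, none of them called. BUB3 met between the tissues at 8.52, the highest epithelial and the lowest mesenchymal value, with a difference of -0.32 ± 0.13 and an adjusted p of 0.13.

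The inverted-teat calls were fragile. Without animal 1037, 1059 or 1103 no member was called and 1 probe set remained, without 963 and 964 the members higher in mesenchymal tissue were 3 and 2, and without the low-keratin epithelial array of animal 1103 they were 3. After quantile normalization none of the members and 2 probe sets were called, and the median difference over all tested probe sets moved from -0.12 to 0.01. With the animal as a random replicate block the calls were 1 and 13, with UBE2C, CDC123, CDK10, CDK2AP2, CDK5 and CDK5RAP1 added. As a fixed block they were 0 and 8, and KIF3A, CDC42 and CDK2AP1 had adjusted p of 0.062, 0.056 and 0.051. Over all probe sets the calls rose from 2115 to 3683 with the random block and to 2496 with the fixed one.

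Inversion itself and the affection status of the animal left no called difference. In each of the 6 comparisons within a tissue and in both interactions 0 members and 0 probe sets passed in limma, which is 0.0% of the probe sets tested. At an unadjusted p under 0.05 there were 3, 1 and 2 of 53 members in epithelial tissue (inverted against normal teats of affected animals, affected against non-affected animals in normal teats, and inverted against non-affected teats) beside 303, 420 and 484 of 17661 probe sets. In mesenchymal tissue the same counts were 0, 2 and 3 of 53 members beside 78, 201 and 219 of 17839 probe sets. The comparisons with non-affected animals share those animals' arrays. In simulated data such fits recovered only 42% to 52.8% of changes of 1 on the log2 scale, so real differences of that size could be missed.

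The comparison of inverted with normal teats of the same affected animals named no cycle gene past the threshold. In epithelial tissue the smallest p belonged to CDC26, a subunit of the anaphase promoting complex, at -0.34 ± 0.15 (SE) and lower in 5 of 5 animals, CDK5RAP1 at -0.33 ± 0.15 and CDC42EP2, a CDC42 effector, at 0.38 ± 0.18. CDC42EP5, another effector, was lower in 5 of 5 animals, with differences from -0.34 to -0.18 and a fitted one of -0.27 ± 0.15, and MCM2 and CENPI, a kinetochore protein, had 0.27 ± 0.19 and 0.34 ± 0.28. In mesenchymal tissue CDK2 had -0.35 ± 0.24, CDC25C 0.38 ± 0.32 and CENPI 0.41 ± 0.34. CENPI was higher in the inverted teat in 5 of 5 animals there, by 0.11 to 0.64. CDC42 had 0.20 ± 0.17, and MCM4 and the replication factor CDC45 had -0.19 ± 0.18 and -0.17 ± 0.15. All adjusted p were 1 (limma).

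TACC3 in mesenchymal tissue had the smallest p of all members in the status comparisons. Its values in non-affected animals (950, 957, 1040, 1058 and 1109) were 3.88, 5.55, 3.97, 3.71 and 3.94. In affected animals (963, 964, 1037, 1059 and 1103) they were 5.39, 5.53, 5.28, 5.04 and 5.95 in normal and 5.19, 5.22, 5.45, 4.63 and 5.41 in inverted teats. All 10 arrays of affected animals were above 4 of the 5 non-affected animals, and animal 957 lay among the affected ones. The 10 arrays came from 5 animals. The values of the 4 low animals lay under the 30th percentile of their arrays (4.55 to 4.82). TACC3 thus passed the filter in mesenchymal tissue mainly through arrays of affected animals. The difference was 1.23 ± 0.31 (SE) between normal teats and 0.97 ± 0.31 for inverted teats, each with an adjusted p of 1 (limma). Without animal 957, the 1 non-affected animal with a high value, TACC3 was the 1 probe set called, at 1.56 with an adjusted p of 0.049. In that fit every non-affected value lay under the 30th percentile of its array. TACC3 then passed the filter only through arrays of affected animals, where it was high, so this call gives no support for a status difference. In epithelial tissue of normal teats the groups overlapped, with 3.27 to 4.71 in non-affected and 2.59 to 4.97 in affected animals. The status difference in epithelial tissue minus that in mesenchymal tissue was -1.08 ± 0.55 (SE, adjusted p = 1).

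UBE2C, also higher in the mean of affected animals, varied more. In mesenchymal tissue its values were 5.22, 6.17, 3.07, 4.62 and 5.03 in non-affected animals (950, 957, 1040, 1058 and 1109) and 5.66, 5.13, 5.76, 4.99 and 6.59 in normal teats of affected animals (963, 964, 1037, 1059 and 1103). The groups overlapped, and the low value of animal 1040 and the high one of animal 957 spanned all others but that of animal 1103. The difference was 0.80 ± 0.46 (SE) for normal teats and 0.91 ± 0.46 for inverted teats, each with an adjusted p of 1. CCNB1 differed by 0.55 ± 0.27 for affected minus non-affected animals, normal teats, and KIF2A by -0.43 ± 0.20. CDC42SE1, a CDC42 effector, had 0.46 ± 0.25, CENPI -0.50 ± 0.34 and CDC42EP3 -0.30 ± 0.22. For inverted against non-affected teats, CDC42EP2 had 0.51 ± 0.21 and CCND2 0.57 ± 0.24, while KIF2A, CDC42EP3 and KIF3A had -0.23 ± 0.20, -0.29 ± 0.22 and -0.33 ± 0.34.

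In epithelial tissue CDK2 came nearest to a status difference. Its values were 5.68, 6.07, 5.68, 5.94 and 5.63 in non-affected animals (950, 957, 1040, 1058 and 1109), and 5.98, 6.42, 6.40, 6.10 and 6.07 in normal and 6.20, 5.98, 6.28, 6.12 and 6.47 in inverted teats of affected animals (963, 964, 1037, 1059 and 1103). The groups overlapped only through animal 957 and the lowest affected values. The differences were 0.39 ± 0.14 and 0.41 ± 0.14 (SE), each with an adjusted p of 1. CDC42EP5 and CDK5 had 0.28 ± 0.15 and 0.35 ± 0.19 between normal teats, and MCM2, CDC23 and CENPH, a kinetochore protein, had -0.30 ± 0.19, -0.28 ± 0.18 and -0.83 ± 0.54. For inverted against non-affected teats, CDC42EP2 had 0.43 ± 0.18, AURKB 0.28 ± 0.18, CDC26 -0.31 ± 0.15, CDK7, a kinase of transcription and CDK activation, -0.23 ± 0.16 and BUB3 -0.17 ± 0.13.

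The interactions asked whether these differences were unlike between the tissues. For inverted minus normal teats, epithelial minus mesenchymal, CDC26 had -0.54 ± 0.26 (SE), CDK7 -0.44 ± 0.24, CDC42EP5 -0.40 ± 0.28, CDK2 0.36 ± 0.28, TACC3 0.46 ± 0.55 and CDC45 0.14 ± 0.17. For affected minus non-affected animals, KIF2A had 0.57 ± 0.27, CCNA2 1.28 ± 1.15, CDK7 0.24 ± 0.24, MCM2 -0.59 ± 0.36 and CDC42SE1 -0.34 ± 0.30. All adjusted p were 1, and at an unadjusted p under 0.05 there was 1 of 56 members in each interaction.

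**Figure D3:**
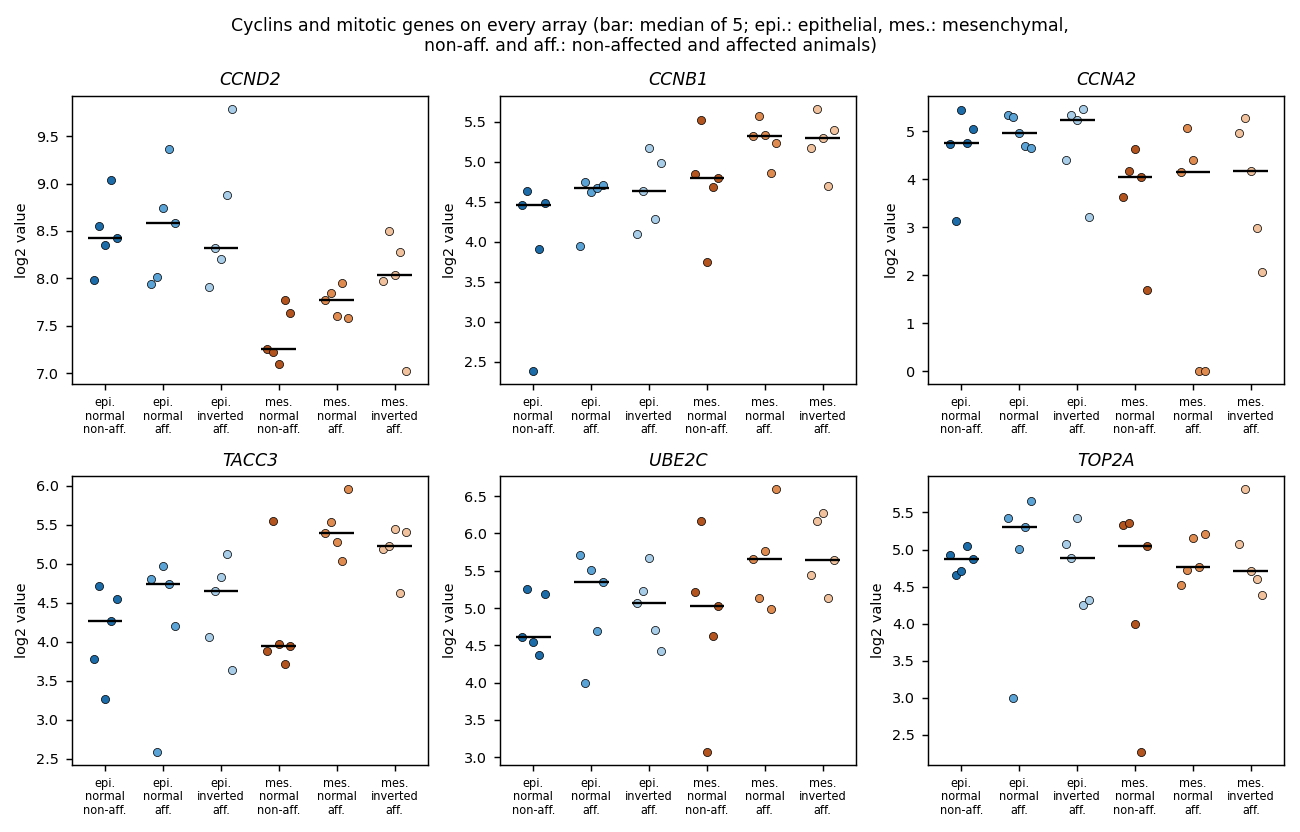
Log2 value on every array (points, 5 per group) and group median (bars) for CCND2, CCNB1, CCNA2, TACC3, UBE2C and TOP2A. Mesenchymal TACC3 of affected animals sits between 4.63 and 5.95 while 4 of 5 non-affected animals sit between 3.71 and 3.97, and the epithelial CCND2 values lie mostly above the mesenchymal ones.

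The mitotic level of single arrays was summarised by a mean over genes. The mean of 9 mitotic genes (TOP2A, CCNA2, CCNB1, CCNB2, CDC20, UBE2C, TACC3, AURKA and AURKB) ran from 3.82 to 5.54 over the 30 arrays. Its group means were 4.63 ± 0.13, 4.85 ± 0.30 and 4.80 ± 0.23 (SD, n = 5) in epithelial tissue of normal non-affected, normal affected and inverted teats. In mesenchymal tissue they were 4.61 ± 0.63, 4.91 ± 0.51 and 5.00 ± 0.42 (SD, n = 5). All 6 groups overlapped. Several of these 9 genes were dim on most arrays, so the mean rests in part on uncertain low values. On average 5.2, 3.8 and 4.2 of the 9 genes missed the filter's 30th-percentile cut in the epithelial groups, in the same order. In the mesenchymal groups 3.8, 2.6 and 2.6 of them missed it. CCNB2 failed the filter in every comparison, and CCNA2 was listed at 0 on single mesenchymal arrays.

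The lowest array was the mesenchymal piece of animal 1058. Its TOP2A value was 2.27, against 3.99 to 5.36 in the rest of its group, CCNB2 was 1.46 and AURKA 3.20. The mesenchymal normal teat of animal 1059 had the next lowest mean, 4.03, with CCNB2 at 2.30 and CCNA2 listed at 0. These dim values pull that mean down. TOP2A, UBE2C, TACC3 and CCNB1 stood at 4.77, 4.99, 5.04 and 4.86 there, near medians of 4.91, 5.18, 5.16 and 5.05 over mesenchymal normal teats. AURKA, AURKB and CDC20 stood lower, at 4.35, 4.71 and 5.22, against medians of 4.69, 5.59 and 6.08. The mesenchymal normal-teat arrays of animals 1058 and 1059 had the 2 highest means over 12 skeletal muscle markers, 11.69 and 12.34. The role of muscle in their mitotic values was not tested. The epithelial normal teat of animal 964 had the lowest epithelial mean, 4.34, with TOP2A at 3.0, TACC3 at 2.59, CENPF, a kinetochore protein, at 3.32 and KIF20A at 1.66. Its MYLPF was listed at 0 and its keratin mean was 10.29. The inverted teat of the same animal had TOP2A at 4.88 and TACC3 at 4.65.

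**Figure D4:**
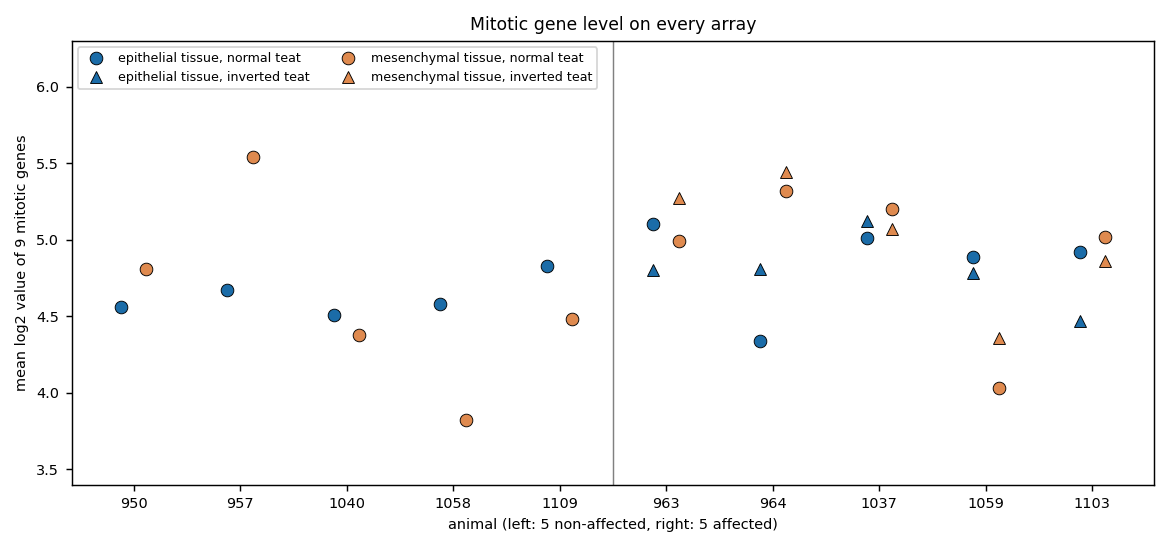
Mean log2 value of the 9 mitotic genes on each array, by animal, with epithelial tissue in blue, mesenchymal tissue in orange, normal teats as circles and inverted teats as triangles. The values run from 3.82 (mesenchymal, animal 1058) to 5.54 (mesenchymal, animal 957), while the epithelial arrays lie between 4.34 and 5.12.

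Levels of 6 members differed between animals of a group. A test of whether animals of a group differed more than arrays of an animal (limma, moderated F over 8 animal terms, 30 arrays) called 6 of 56 members, or 10.7%, against 21.0% of 18783 probe sets. CCNB1 had the smallest p, with F = 8.96 and an adjusted p of 0.0026. Animal 1040 had the lowest CCNB1 of its group in both tissues, 2.38 and 3.75, and without that animal the adjusted p was 0.06. Both values lay under the 30th percentile of their arrays, 4.73 and 4.6.

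The other members called were CDC42BPA, a kinase bound by CDC42 (F = 5.03, adjusted p = 0.02), KIF5B (F = 4.66, adjusted p = 0.026), CDC37L1, a relative of CDC37 (F = 4.51, adjusted p = 0.028), CDC42SE2, a small CDC42 effector (F = 3.71, adjusted p = 0.046), and PCNA (F = 3.57, adjusted p = 0.05 after rounding). CDC42BPA was highest of its group in both tissues of animal 950, at 8.50 and 8.94, while the other non-affected animals had 7.84 to 8.01 and 7.25 to 7.88. KIF5B was high in all 4 arrays of animal 964, from 8.25 to 8.71, and in mesenchymal tissue lowest in animal 1037, at 7.0 and 7.03. PCNA was the highest of its group in epithelial tissue of animal 1109, at 7.01, and stood at 7.47 in its mesenchymal tissue. These calls depended on single animals: without animal 950 or 1037 only CCNB1 remained, the counts were 2 and 3 without 964 or 963, and 11 without 1103. With the keratin mean as a covariate 1 member, CCNB1, was called.

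**Figure D5:**
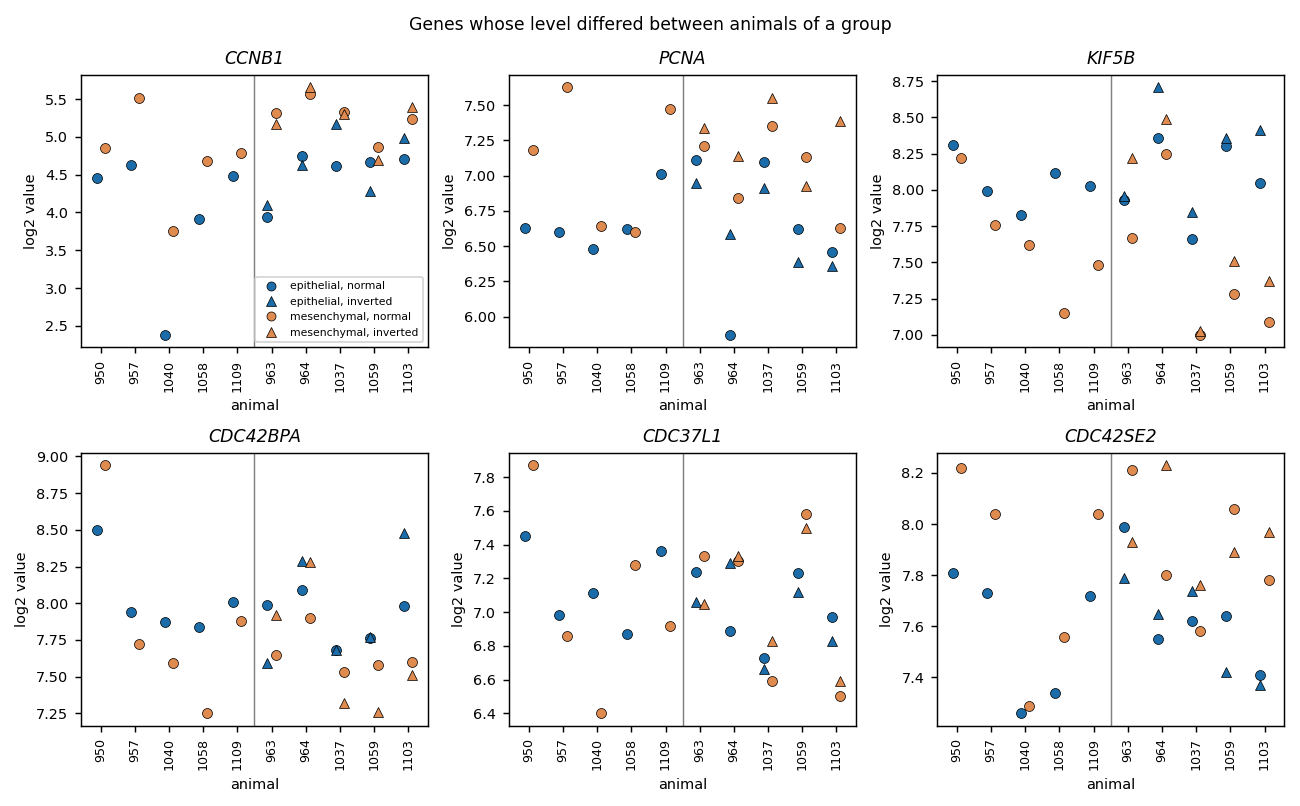
Log2 value of the 6 genes with an animal effect on each array, by animal, with non-affected animals left and affected animals right of the grey line, epithelial tissue in blue, mesenchymal in orange, normal teats as circles and inverted teats as triangles. CCNB1 is lowest in animal 1040, at 2.38 and 3.75, and CDC42BPA is highest in animal 950, at 8.50 and 8.94.

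Members of one role moved together only in part from array to array. Pearson's r between pairs of genes was taken over the 30 arrays after the group means were removed, and it is a description, since the arrays share animals and the genes of an array share its labelling and tissue mix. Its median was 0.06 over the 1770 pairs of members, 0.25 over the 36 pairs of the 9 mitotic genes and 0.22 over the 15 pairs of replication genes. TOP2A went best with CENPF (0.70) and CCNB2 (0.67) among members, and UBE2C with TACC3 (0.64). Among other cycle genes UBE2C went with RACGAP1, a regulator of cytokinesis (0.83), and with RRM2, the small subunit of ribonucleotide reductase (0.81). The highest values among the members were those of the CDC42 partners CDC42BPB and CDC42EP5 (0.86), of CDC25C with KIF5B (0.85), a pair of unlike roles, and of CDC25C with CDC5L (0.82). CDC20 and CDC34 ran opposite (-0.83): on the mesenchymal arrays of animals 1058, 1059 and 1059 inverted, CDC34 stood at 10.90, 10.70 and 10.22 and CDC20 at 5.09, 5.22 and 5.26.

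A further 79 genes that regulate or serve the cycle were measured. In normal teats 6 of the 12 CDK inhibitors and p53 responders tested were called lower and 1 higher in epithelial tissue, beside 20.6% and 12.9% of all probe sets, and whether the list stands apart was not tested. CDKN1A, the p21 inhibitor, had an epithelial minus mesenchymal difference of -1.76 ± 0.24 (SE, log2, adjusted p = 4.6e-05) with no overlap between the tissues, and GADD45A, a stress-induced growth brake, by -1.90 ± 0.30 (adjusted p = 1.5e-04). SESN1, a p53 target, had -1.02 ± 0.17. CDKN1B, the p27 inhibitor, had -0.06 ± 0.13. CDKN1A, GADD45A and SESN1 passed under each of the 18 alternatives, and in inverted teats they were called again with -1.71, -2.01 and -1.03.

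Of the 8 E2F, RB and DREAM regulators 2 were called, both lower in epithelial tissue: TFDP2, a partner of E2F, with -1.13 ± 0.13 (SE) and E2F3 with -0.45 ± 0.12. Of 23 genes of nucleotide supply and replication, 3 were called in each direction, among them ORC4 and ORC3, subunits of the origin recognition complex, with 0.97 ± 0.22 and 0.58 ± 0.14, and RPA3, a subunit that coats single-stranded DNA, with -0.75 ± 0.15. Of 20 tested genes of the mitotic machinery 6 were called, all lower in epithelial tissue. Counted over both directions, the share of calls in these lists was near or below the 33.5% of all probe sets. In the lower direction alone 20.6% of all probe sets were called, a smaller share than in the mitotic machinery and E2F lists. Whether these lists stand apart was not tested. KIFC1, a spindle motor, had -0.76 ± 0.15, and CKS1B and CKS2, which bind cyclin-dependent kinases, had -0.68 ± 0.16 and -0.45 ± 0.13. ATM, the kinase that signals DNA breaks, was the 1 of 7 checkpoint and repair genes called, with 0.66 ± 0.18. With the keratin mean as a covariate E2F3 (-0.45), ORC3 (0.49), ORC4 (0.73), KIFC1 (-0.51), CKS2 (-0.34) and ATM (0.34) no longer passed, and ORC4 did not pass with the mean of its probe sets. Of the classical proliferation genes outside the member list, FOXM1, PLK1, BIRC5, RRM2 and TYMS had -0.11 ± 0.17, -0.20 ± 0.25, -0.54 ± 0.23, -0.43 ± 0.39 and 0.06 ± 0.14, and none was called.

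Over the 5 lists as a whole, the share of genes with an animal effect was near that of all probe sets. The test called 5 of 20 genes of the mitotic machinery, 3 of 23 of nucleotide supply and replication, 3 of 12 CDK inhibitors and p53 responders, 2 of 8 E2F, RB and DREAM regulators and 2 of 7 checkpoint and repair genes, beside the 21.0% of all probe sets. GADD45A (F = 8.15, adjusted p = 0.0038), HUS1, a DNA damage clamp (F = 7.35, adjusted p = 0.0057), and GADD45G (F = 6.58, adjusted p = 0.0085) passed under each of the 15 alternatives run. RACGAP1 and WEE1, the kinase that holds back mitosis, both had F = 6.41 (adjusted p = 0.0093). RACGAP1 was lost without animal 1037, and WEE1 without animal 963 and with the keratin covariate. SMC4, a condensin, and RAD21, a cohesin, had F = 5.06 and 5.42. ORC6 and GMNN, which act on replication origins, RRM2 and CCNG2, a p53-linked cyclin, had F between 4.58 and 4.78, and LIN52 and LIN37 of the DREAM complex had 4.38 and 3.58. All 8 of these lost the call without animal 1037, and all but RRM2 and LIN52 without animal 950.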

How the data were processed

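Total RNA of 30 teat samples was hybridized to the Affymetrix Porcine Genome Array, and the authors deposited 1 table of 24123 probe sets with values on a log2 scale, as read from their range. The submitters' processing notes name GCOS 1.1.1 and PLIER without a role, and a normalization between arrays is not given in the sources used here. Array medians lay between 5.71 and 6.04, and 358 to 754 probe sets an array were listed at 0. The 124 control probe sets were left out. Of the probe sets, 10099 had 1 symbol in the platform annotation, 198 had several and 13826 had none. All 60 members' Entrez IDs were found in RefSeq.

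Values were used as deposited and tested with limma 3.58.1 in R 4.3.3 (lmFit and eBayes, two-sided, Benjamini-Hochberg over all tested probe sets, threshold 0.05), with further steps in Python 3.11.15, pandas 2.3.3 and numpy 2.4.6. A probe set was tested if it exceeded its array's 30th percentile (4.49 to 4.84) on at least 5 arrays of a comparison. Tissue was compared over 20 arrays of normal teats and over 10 of inverted teats, teats and status within a tissue over 15, and interactions and the animal effect over 30. The number of arrays limits the precision. The fits were tested on simulated data.

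Pieces of 1 animal are paired through the animal number in the labels. Residuals of an animal's normal and inverted teats had correlations of 0.15 to 0.29 (epithelial) and 0.08 to 0.42 (mesenchymal), and those of its tissues at 0.02 to 0.51 (non-affected), 0.00 to 0.23 (affected, normal teat) and -0.01 to 0.37 (inverted). Alternatives were quantile normalization, no filter, the animal as a random or fixed replicate block, breed, leaving out each animal, the mean of a gene's probe sets, all 30 arrays in 1 fit, leaving out the inverted epithelial array of animal 1103, and a keratin covariate (KRT8, KRT18 and KRT19, averaged per array). Members, lists and alternatives were chosen with earlier results of these data known. Values are given for classical cycle genes, for the 10 largest called tissue differences in each direction, for the 3 members with the smallest p in each direction of the other comparisons, and for the 3 called genes with the smallest p of each further list.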

Additional observations from a re-analysis of the deposited data

Results flagged for a closer look

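In 16 of 270 groups of 5 arrays (the 45 members given by name under the rule for naming genes, 6 groups each) 1 array stood apart, its gap to the nearest other array being over 0.71 of the group's range. Chance gives about 1 in 20 such groups. Animal 1058 gave 4 of them, animal 950 gave 3, animals 963, 964 and 1103 gave 2 each, and animals 957, 1059 and 1109 gave 1 each.

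In mesenchymal normal teats of non-affected animals, CDC34 was 10.90 in animal 1058 while the other 4 lay between 8.0 and 8.60. CDC123 was 9.09 there, against 8.52 to 8.63, and KIF2A 4.90, against 5.38 to 5.55. Animal 950 had BUB3 at 9.17, against 8.29 to 8.51, and CENPI at 7.16, against 5.87 to 6.21. Animal 957 had TACC3 at 5.55, against 3.71 to 3.97. In epithelial tissue of the same teats MCM4 was 4.32 in animal 1058, against 4.59 to 4.68, PCNA was 7.01 in animal 1109, against 6.48 to 6.63, and CDC42BPA was 8.50 in animal 950, against 7.84 to 8.01.

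In epithelial normal teats of affected animals CCNB1 was 3.94 in animal 963, against 4.62 to 4.75, and MCM4 was 3.44 on the same array, against 4.83 to 5.04. Animal 964 had TOP2A at 3.0, against 5.01 to 5.65, and CENPI at 4.68, against 6.09 to 6.57. In mesenchymal tissue CDC42SE1 was 5.91 in animal 1059, against 6.76 to 7.02. The epithelial array of the inverted teat of animal 1103, which had the lowest keratin mean of the epithelial arrays, had CDC42EP3 at 8.51, against 7.09 to 7.27, and MCM2 at 4.83, against 5.69 to 5.82.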

How the results depend on the processing

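Of the recomputed counts of calls 379 stayed within 1.5 times the reported count and 65 did not. Of the recomputed gene values 2329 kept their direction and their side of the threshold, many of them for genes that were not called. A further 209 lost the call, 15 gained it and 26 changed sign. In normal teats the members called higher in epithelial and in mesenchymal tissue ranged from 4 to 9 and from 7 to 11 when 1 animal was left out, and the probe sets from 1390 to 2879 and from 3012 to 3875. Quantile normalization gave 7 members higher in mesenchymal tissue, and the keratin covariate 2 and 3 members and 264 and 1516 probe sets. In inverted teats the ranges without 1 affected animal were 0 to 2 and 0 to 3 members and 0 to 200 and 1 to 1315 probe sets, higher in epithelial and in mesenchymal tissue. In the same order, quantile normalization gave 0 and 0 members and 1 and 1 probe sets, no filter 0 and 1 members and 60 and 1030 probe sets, and breed 0 and 4 members and 71 probe sets higher in epithelial tissue. The random replicate block gave 13 members higher in mesenchymal tissue and 511 and 3172 probe sets, and the fixed replicate block 0 members and 299 probe sets higher in epithelial tissue. Neither block changed a call other than those named in the report. The mean of a gene's probe sets gave 0 members and all 30 arrays 285 probe sets higher in epithelial tissue, and the keratin covariate 4 members higher in mesenchymal tissue. Without the inverted epithelial array of animal 1103 the counts were 0 and 3 members and 45 and 1305 probe sets.

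The animal effect ranged from 1 to 11 members and 1390 to 5347 probe sets without 1 animal, gave 2607 probe sets without the filter, and 1 member and 1566 probe sets with the keratin covariate. Affected against non-affected animals in mesenchymal tissue ranged from 0 to 1 member and probe set, and the other teat, status and interaction counts stayed at 0. Signs turned only for genes that were not called. With 1 animal left out, the tissue difference in normal teats ranged from -0.11 to 0.07 for CDC20, from -0.03 to 0.19 for MCM2, from -0.06 to 0.44 for TOP2A, from -0.02 to 0.15 for TYMS, from -0.04 to 0.12 for AURKB and from -0.11 to 0.14 for MCM3. In inverted teats it ranged from -0.06 to 0.31 for CDC20, from -0.21 to 0.19 for MCM2 and from -0.06 to 0.12 for AURKB. CENPI in epithelial inverted minus normal teats ranged from -0.06 to 0.46, and the interaction of tissue and teat for TACC3 from -0.02 to 0.71. Under quantile normalization the normal-teat differences of CDC20, BUB3 and CDKN1B were 0.00, 0.10 and 0.12. With the keratin covariate those of MCM2, TOP2A, AURKB, MCM3, TYMS and CDK2 were -0.14, -0.10, -0.08, -0.26, -0.10 and 0.05, and that of MCM2 in inverted teats was -0.01. The cause of these changes was not tested. Dim members near the 30th percentile, such as CCNA2, AURKA, CCNB1 and TACC3, have the least certain values.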
